A study of Homo sapiens with 6 samples.

Results

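The substrate adaptors of the cullin 3 ubiquitin ligase are BTB-domain proteins, and 50 of their genes were described here across 6 RNA-seq libraries of hTERT RPE-1. This is a human line of retinal pigment epithelium kept dividing by telomerase. They were chosen by symbol, as adaptors or BTB relatives that could serve as adaptors, a rule that uses no measured value. Earlier results of these data were known when the choice was made. All had a row among the 13696 gene identifiers of the deposited table, and all 50 passed the filter on low values, a mean of at least 1 CPM (read counts scaled to a common library size) over the libraries. By name they fell into 21 KLHL genes, 6 KBTBD genes, 8 KCTD genes, 6 BTBD genes and 9 others (KEAP1, SPOP, SPOPL, TNFAIP1, ENC1, IVNS1ABP, RHOBTB1, RHOBTB3 and BACH1). Of the libraries, 3 came from untreated cells. The other 3 came from cells exposed to 25 nM camptothecin, a topoisomerase 1 inhibitor, for 1 h and harvested after 24 h without drug, called pre-dose below. No genotype, knockdown or second agent is named in the labels for either group, and the titles of all 6 libraries carry the token "Top1" without saying what it stands for. The series asks about NEDD8-modified cullin 3 and how cells adapt to topoisomerase 1 inhibitors. Whether replicates were grown separately is not stated, so p-values cover only the scatter of these libraries, which may be technical.

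Cullin 3 is a scaffold. At one end it binds RBX1, which recruits a ubiquitin-loaded enzyme, and at the other it binds the BTB domain of an adaptor, whose second domain (Kelch repeats in the KLHL and KBTBD proteins, a MATH domain in SPOP) holds the substrate. Attachment of the ubiquitin-like protein NEDD8 to the cullin turns the ligase on, and the choice of adaptor decides which protein is marked. KEAP1 is the best known adaptor in epithelial cells: it marks NRF2, the activator of antioxidant genes, for degradation until oxidants or electrophiles modify its cysteines. Other adaptors act in mitosis, in RhoA turnover, in salt transport and in vesicle coat formation. Several proteins of the list, among them BACH1 and most of the BTBD proteins, carry a BTB domain but are less well established as adaptors.

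Library totals implied by the deposited values ran from 26336941 to 31780391 reads, so 3 counts, the floor for detection, corresponded to 0.0944 to 0.114 CPM (counting error only). Both replicate 1 libraries stood apart from replicates 2 and 3 in expression across the transcriptome, and results that turn on them are given with and without them. Of 9 retinal pigment epithelium markers, 3 had a row: MITF at 44.9 to 50.6 CPM, OTX2 at 15.8 to 18.4 CPM and BEST1 at 4.14 to 5.40 CPM. RPE65, RLBP1, TYR, TYRP1, PMEL and SERPINF1 had no row in the table, so most of this list did not bear out the label. A missing row can mean a low level, but the authors' filter is not stated. The epithelial keratins KRT8 (869 to 979 CPM) and KRT18 (413 to 461 CPM) and the mesenchymal VIM were abundant. Of the cadherins on the same list, the mesenchymal CDH2 measured 280 to 316 CPM and the epithelial CDH1 had no row. Of 8 markers of blood, keratinocytes and neurons, SNAP25 alone had a row, at 0.967 to 1.61 CPM. In bulk RNA, fewer cells of a kind and less RNA per cell cannot be told apart.

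Adaptor levels were compared between genes as CPM per kb of merged exon length, in which longer genes do not count as more abundant. The 50 adaptors ranged from 0.259 to 42.2 CPM per kb, with a median of 5.49 beside 4.70 for all genes tested. ENC1, an actin-binding Kelch protein first described in neurons, was the highest at 42.2 CPM per kb (library range 38.1 to 47.4). KLHL5 followed at 32.1 (29.4 to 34.8) and BTBD2, which binds topoisomerase 1, at 27.7 (24.7 to 30.6). Of the exon bases of BTBD2, 15.4% overlap AC005306.1 on the opposite strand. The ENC1 libraries all lay above those of KLHL5, whereas the KLHL5 and BTBD2 libraries overlapped. TNFAIP1 at 23.5 and KEAP1 at 22.7 CPM per kb came next, then RHOBTB3 at 17.0. At the low end stood KLHL15 (1.33 CPM per kb), KLHL3 (0.753), KLHL28 (0.740), KBTBD3 (0.329) and KBTBD8 (0.259).

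The order was graded, with few steps. Of the 49 pairs of neighbours in it, 43 had overlapping libraries and 6 did not. These 6 were ENC1 above KLHL5, BTBD2 above TNFAIP1, KEAP1 above RHOBTB3, KCTD3 above BTBD10, KLHL15 above KLHL3 and KLHL28 above KBTBD3. The nearest libraries of BTBD2 and TNFAIP1 were almost level, at 24.7 and 24.4 CPM per kb. KLHL3, KLHL28, KBTBD3 and KBTBD8, below the step at KLHL15, formed a low tail. Their depth was still workable for KLHL3, with 195 to 326 estimated reads per library, and thin for KBTBD8, with 26 to 47. KBTBD8, an adaptor that modifies TCOF1 and NOLC1 in neural crest formation, measured 1.17, 1.01 and 1.47 CPM in untreated replicates 1, 2 and 3 and 1.49, 0.978 and 1.25 CPM in the pre-dose libraries, which overlapped.

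**Figure D1:**
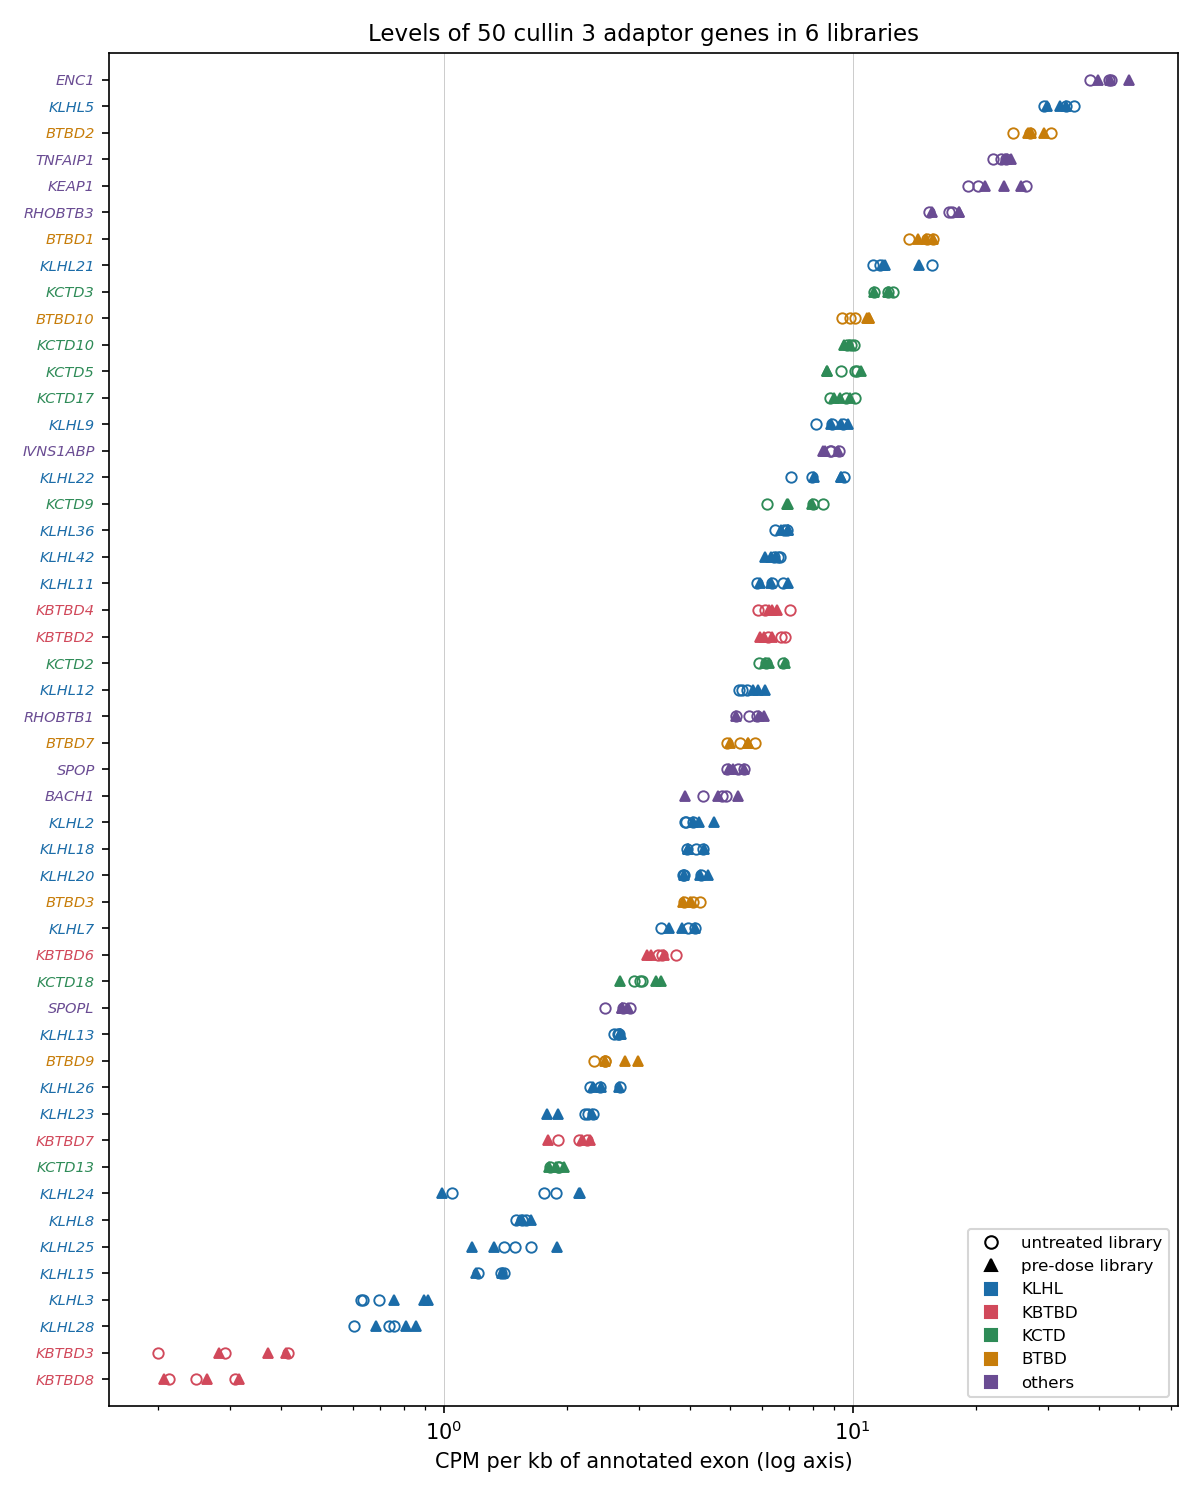
Level of each of the 50 adaptors in CPM per kb of merged exon length on a log axis, ordered by mean. Open circles are the 3 untreated libraries and triangles the 3 pre-dose libraries, coloured by subfamily. ENC1 stands highest at a mean of 42.2 and KBTBD8 lowest at 0.259, and the libraries of most neighbours overlap.

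Paralogs were unequal in level, and apart from KCTD5 and KCTD17 the libraries of those set side by side here did not overlap. Of KLHL2 and KLHL3, which both mark WNK kinases of salt transport, KLHL2 stood at 4.12 CPM per kb and KLHL3 at 0.753. KLHL9, which acts with KLHL13 on Aurora B in mitosis, stood at 9.08 and KLHL13 at 2.68. KBTBD6 and KBTBD7, which act together on the RAC1 activator TIAM1, stood closer, at 3.37 and 2.09 CPM per kb. SPOP, which marks BET proteins and GLI factors, stood at 5.18 and its paralog SPOPL at 2.72. Of the topoisomerase 1 binding pair, BTBD2 stood at 27.7 and BTBD1 at 15.0 CPM per kb. Within the RhoA-directed trio, TNFAIP1 was the highest at 23.5, above KCTD10 at 9.81 and KCTD13 at 1.88. KCTD5, which acts on G protein beta subunits, KCTD17 and KCTD2 were nearer to each other, at 9.59, 9.47 and 6.32 CPM per kb. Reads that fit both copies of such a pair may have been split between them by the counting step, whose rule is unstated in the sources used here.

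The comparison of pre-dose with untreated cells asked whether a low camptothecin exposure left adaptor transcripts altered a day later. None of the 50 adaptors passed an adjusted p of 0.05 in limma's test with Benjamini-Hochberg adjustment over all 13616 genes tested, where 0.0% of genes were called. Differences were small: on the log2(CPM + 1) scale, pre-dose minus untreated, they ran from -0.17 in KLHL23 to 0.35 in KLHL3. The median was 0.02 over the adaptors and 0.00 over all genes tested, with 32 adaptors above 0 and 18 below. At an unadjusted p under 0.05 there were 2 adaptors, KLHL3 and BTBD10, both higher in pre-dose, beside 2.06% of all genes. On the CPM + 1 scale, the 95% confidence interval lay within a fold of 1.5 in either direction for 48 of the 50 (96.0%). The exceptions were KLHL24 and KBTBD3, and the share of all genes was 92.4%. This scale understates folds of CPM itself in low genes. For KLHL3 the difference was 0.38 log2 with 0.25 CPM added in place of 1 CPM. The bound says little of KBTBD8, whose level was near the 1 CPM added. Summed over the list, adaptor transcript came to 391.9, 388.4 and 392.0 CPM per kb in untreated replicates 1, 2 and 3 and to 395.2, 399.3 and 399.0 in the pre-dose libraries.

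By library, 4 of the 50 adaptors (8.0%) had groups that did not overlap, beside 6.55% of all genes. These were KLHL3, KLHL12, KLHL13 and BTBD10, each with all pre-dose libraries above all untreated ones. With same-numbered libraries set side by side, 16 adaptors (32.0%) were higher in pre-dose in all 3 pairs, beside 15.6% of all genes, and 3 (6.0%), KBTBD6, KCTD10 and BTBD3, were lower in all 3, beside 16.3%. The sizes were small, with a median over the whole list of 0.03 log2 in each pair, beside 0.00 for all genes. In the authors' deposited table, 1 adaptor passed an adjusted p of 0.05, KLHL3 at 0.0331, where 3.05% of all genes did.

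**Figure D2:**
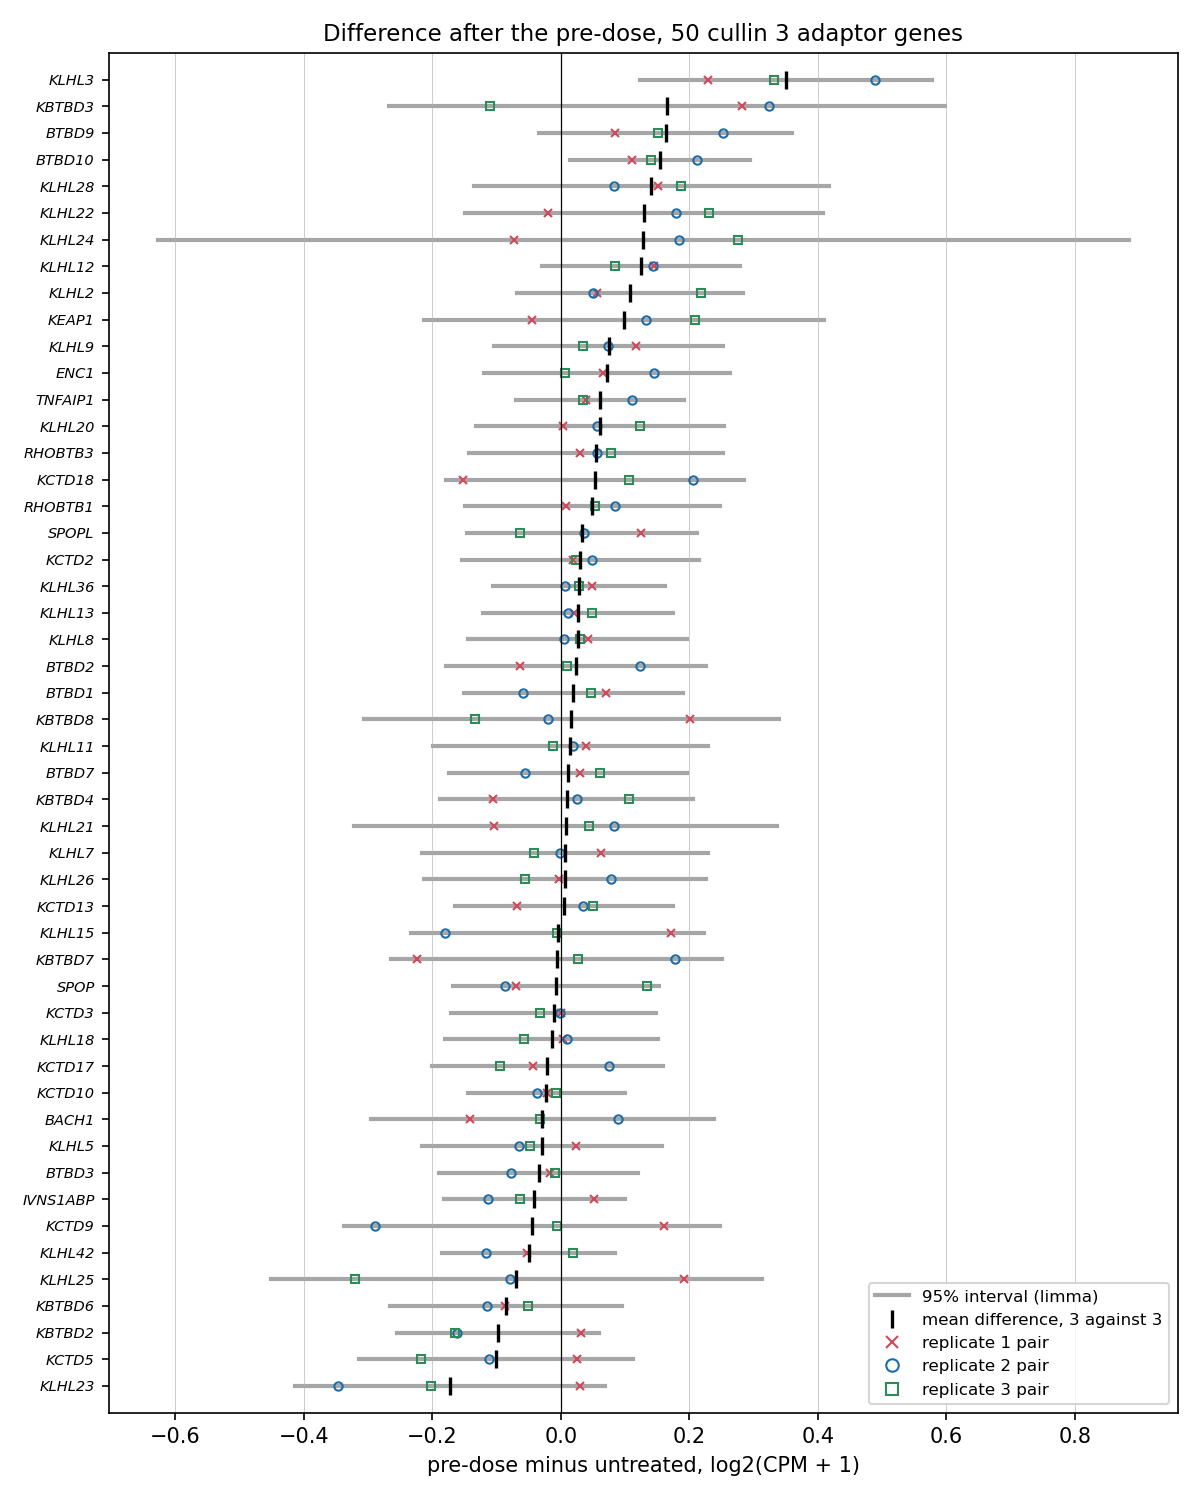
Log2 difference of each adaptor, pre-dose minus untreated on the log2(CPM + 1) scale, with its 95% confidence interval from limma (n = 3 libraries per group), ordered by size. Black bars are mean differences and coloured marks the 3 same-numbered pairs. KLHL3 lies highest at 0.35 and KLHL23 lowest at -0.17, and KLHL24 has the widest interval.

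Among the KLHL genes, 15 of 21 were above 0 and 6 below, with a median of 0.03 log2, and none was called. KLHL3, the adaptor for WNK kinases whose mutations cause familial hypertension with high potassium, had the largest difference on the list. KLHL3 measured 7.52, 7.42 and 8.22 CPM in untreated replicates 1, 2 and 3 and 8.98, 10.8 and 10.6 CPM in the pre-dose libraries of the same numbers. Every pre-dose library lay above every untreated one, with pre-dose replicate 1 nearest to the untreated values. The means were 7.72 ± 0.436 CPM untreated and 10.1 ± 1.01 CPM pre-dose (SD, n = 3), a fold of 1.31, and the log2 difference was 0.35 (95% interval 0.12 to 0.58, unadjusted p = 0.00796, adjusted p = 1.00, limma). Over replicates 2 and 3 alone it was 0.41 with an adjusted p of 0.0241, in a fit that called 6.36% of all genes. With libraries weighted by their scatter (limma), it was 0.39 with an adjusted p of 0.0451, in a fit that called 1.39%. The weights came from these same libraries, not from a measure of quality, and were lowest for the replicate 1 libraries. This fit is therefore no separate support beside that of replicates 2 and 3. KLHL2, the paralog of KLHL3, had a difference of 0.11 (unadjusted p = 0.192, limma).

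KLHL12, which marks the COPII coat protein SEC31A and so enlarges secretory vesicles, measured 18.8, 19.5 and 19.0 CPM in untreated replicates 1, 2 and 3 and 20.9, 21.7 and 20.2 CPM in pre-dose. The groups did not overlap, and the difference was 0.12 log2 (-0.03 to 0.28, unadjusted p = 0.0992, limma). KLHL13 did not overlap either, yet its groups were almost equal, at 18.5 ± 0.298 and 18.9 ± 0.0326 CPM (SD, n = 3). KLHL23 had the largest difference in the other direction, with 12.4, 12.8 and 12.2 CPM untreated and 12.7, 9.83 and 10.5 CPM pre-dose. Its pre-dose replicate 1 lay within the untreated range, while pre-dose replicates 2 and 3 were below all of them, and the difference was -0.17 log2 (-0.41 to 0.07, unadjusted p = 0.134, limma). KLHL23 shares 7.79% of its exon bases with PHOSPHO2 on the same strand, so reads there could be counted to either.

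KLHL20, an adaptor for DAPK1 and PML, measured 16.4, 18.1 and 16.4 CPM untreated and 16.4, 18.8 and 18.0 CPM pre-dose, overlapping groups with a difference of 0.06 log2 (-0.13 to 0.25). Of the mitotic adaptors, KLHL18, which acts on Aurora A, had a difference of -0.01, KLHL9 0.07, KLHL21 0.01 and KLHL22, an adaptor of PLK1, 0.13 log2. None of these passed the test. KLHL28 measured 4.88, 6.09 and 5.95 CPM untreated and 5.53, 6.51 and 6.91 CPM pre-dose, higher in each pair (differences 0.15, 0.08 and 0.19) but overlapping between groups. The abundant KLHL5 measured 151, 179 and 171 CPM untreated and 153, 171 and 165 CPM pre-dose, and overlapped fully. Differences of the remaining KLHL genes (KLHL7, KLHL8, KLHL11, KLHL15, KLHL26, KLHL36 and KLHL42) ran from -0.05 to 0.03 log2. Among them KLHL15, an adaptor for the resection factor CtIP, had 0.00 (-0.23 to 0.22).

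Of the 6 BTBD genes, 5 were above 0, with a median of 0.02 log2 and none called. BTBD10 measured 35.4, 32.9 and 34.4 CPM in untreated replicates 1, 2 and 3 and 38.3, 38.3 and 38.0 CPM in the pre-dose libraries of the same numbers. All pre-dose libraries lay close together and above the untreated ones, and the difference was 0.15 log2 (0.01 to 0.29, unadjusted p = 0.0356, adjusted p = 1.00, limma). BTBD9, whose locus is linked to restless legs syndrome, measured 22.2, 23.7 and 23.7 CPM untreated and 23.6, 28.4 and 26.4 CPM pre-dose. It was higher in pre-dose in each pair (0.08, 0.25 and 0.15), but pre-dose replicate 1 lay inside the untreated range, and the difference was 0.16 log2 (-0.03 to 0.36, unadjusted p = 0.0921, limma). The topoisomerase 1 binding proteins differed by little: BTBD1 had a difference of 0.02 (-0.15 to 0.19) and BTBD2 of 0.02 (-0.18 to 0.23) log2. BTBD2 measured 182, 147 and 161 CPM untreated and 174, 159.8 and 163 CPM pre-dose, with replicate 1 the highest library of each group.

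The KBTBD genes were split, with 3 of 6 above 0 and a median of 0.00 log2. KBTBD2, which limits insulin signalling by marking the PI3 kinase subunit p85 alpha, measured 31.0, 34.0 and 33.3 CPM untreated and 31.7, 30.3 and 29.6 CPM pre-dose. Pre-dose replicates 2 and 3 were below every untreated library and pre-dose replicate 1 was not; the difference was -0.10 log2 (-0.26 to 0.06, unadjusted p = 0.184, limma). KBTBD6 measured 19.1, 17.7 and 17.3 CPM untreated and 17.9, 16.2 and 16.6 CPM pre-dose, lower in each pair (-0.09, -0.12 and -0.05) and overlapping between groups. Its partner KBTBD7 had a difference of -0.01, and its pairs (-0.22, 0.18 and 0.03) did not share a sign. KBTBD4, an adaptor for the CoREST complex, had a difference of 0.01 log2, and 38.3% of its exon bases overlap PTPMT1 on the opposite strand.

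Of the 8 KCTD genes, 3 were above 0 and 5 below, with a median of -0.02 log2. KCTD5 measured 35.1, 32.1 and 34.6 CPM untreated and 35.8, 29.6 and 29.6 CPM pre-dose. Pre-dose replicate 1 was the highest of all 6 libraries and pre-dose replicates 2 and 3 the lowest, and the difference was -0.10 log2 (-0.31 to 0.11, unadjusted p = 0.3, limma). The RhoA adaptors differed by little, KCTD10 at -0.02 (-0.14 to 0.10), KCTD13 at 0.00 (-0.16 to 0.17) and TNFAIP1 at 0.06 (-0.07 to 0.19) log2. KCTD2, KCTD3, KCTD9, KCTD17 and KCTD18 lay between -0.04 and 0.05 log2.

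KEAP1 measured 99.9, 72.1 and 76.4 CPM in untreated replicates 1, 2 and 3 and 96.8, 79.1 and 88.4 CPM in pre-dose. The replicate 1 libraries were the highest of both groups, and within pairs the differences were -0.05, 0.13 and 0.21 log2. The mean difference of 0.10 (-0.21 to 0.41, unadjusted p = 0.482, limma) was thus smaller than the gap between replicates. BACH1, a BTB repressor that competes with NRF2 for the same DNA element, measured 33.2, 37.9 and 37.0 CPM untreated and 30.0, 40.4 and 36.1 CPM pre-dose, with a difference of -0.03 (-0.30 to 0.24). SPOP measured 33.4, 34.6 and 31.4 CPM untreated and 31.8, 32.5 and 34.6 CPM pre-dose, overlapping groups with a difference of -0.01 (-0.17 to 0.15). ENC1 measured 223, 251 and 248 CPM untreated and 233, 277 and 249 CPM pre-dose, a difference of 0.07 log2 (-0.12 to 0.26), higher by little in each pair. IVNS1ABP, a Kelch protein that binds the influenza protein NS1, had -0.04, and RHOBTB1, RHOBTB3 and SPOPL had 0.05, 0.05 and 0.03 log2.

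**Figure D3:**
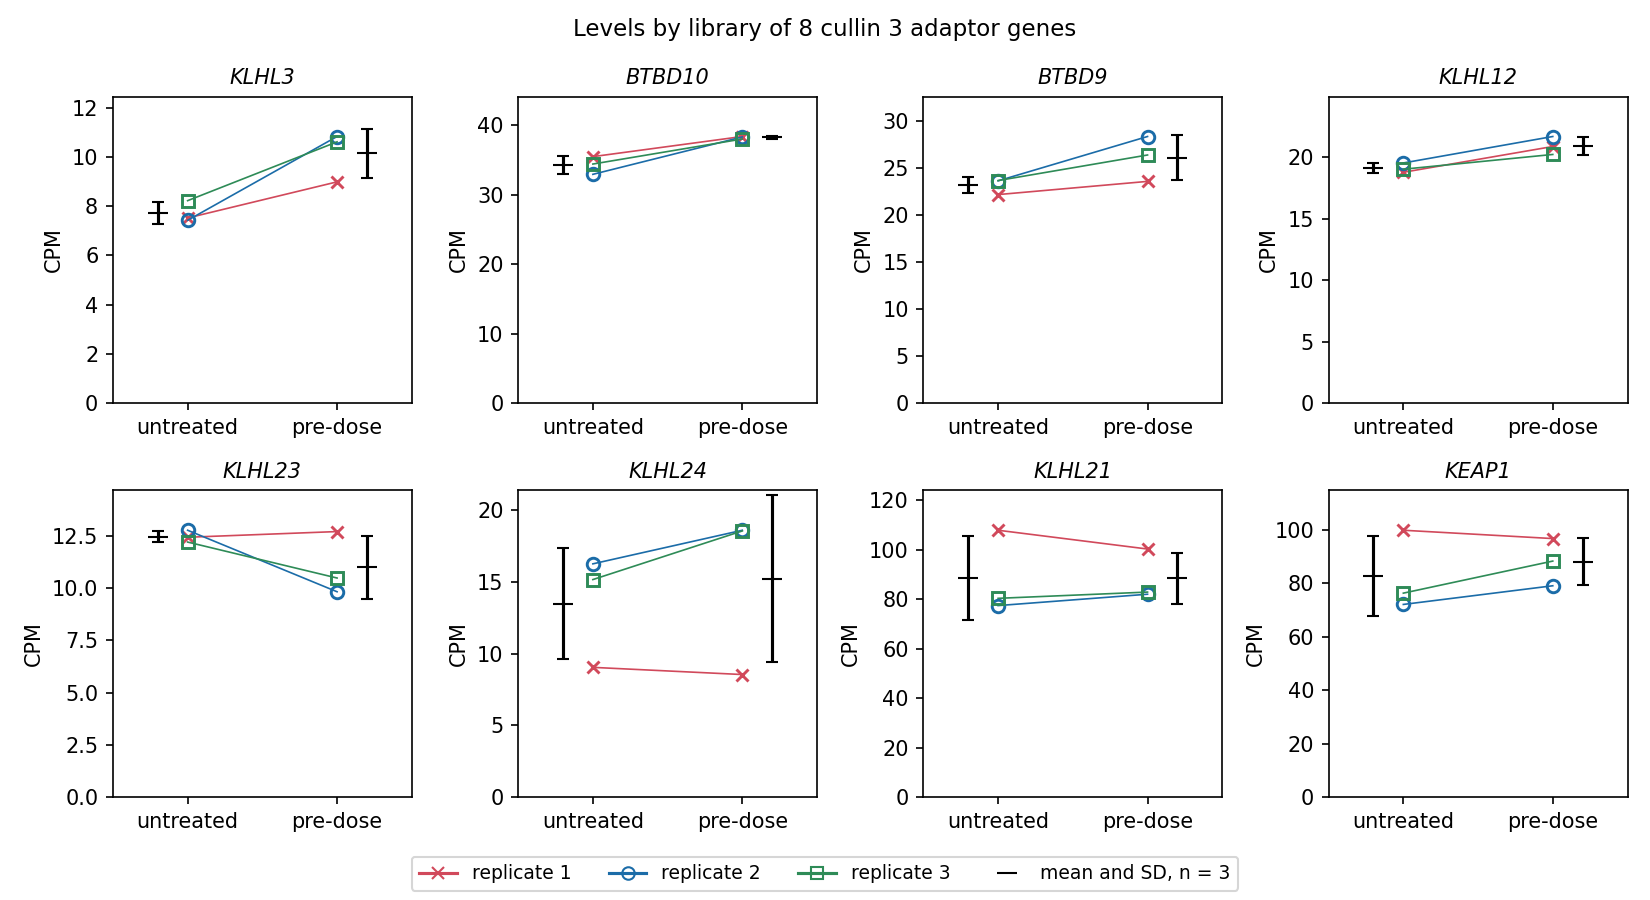
CPM of 8 named adaptors in each library (linear axes starting at 0). Coloured marks are replicates 1, 2 and 3, lines join the same number in the untreated and pre-dose groups, and black bars give the mean and SD (n = 3). In KLHL3, KLHL12 and BTBD10 all pre-dose libraries lie above the untreated ones; in KEAP1, KLHL21 and KLHL24 the replicate 1 libraries of both groups lie together, away from the rest.

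Promoter windows are shown for 4 adaptors: KLHL3 and BTBD10, with the smallest p between groups, and KLHL24 and KLHL21, with the smallest p between replicate 1 and the others (below). Each is the stretch just upstream of the transcript, on the gene's strand, from RefSeq's promoter table on GRCh38.p14, without annotated exon bases. This left out 1, 75, 55 and 132 bases next to the RefSeq start in KLHL3, BTBD10, KLHL24 and KLHL21. Matches in those bases or across the cut are not marked, among them GC boxes of BTBD10 and KLHL21 and a CCAAT box of KLHL24. Capitals mark matches to motifs searched on both strands: the GC box GGGCGG, the CCAAT box CCAAT, the core of the element bound by NRF2 and BACH1, TGACNNNGC, and the p53 half-site.
KLHL3: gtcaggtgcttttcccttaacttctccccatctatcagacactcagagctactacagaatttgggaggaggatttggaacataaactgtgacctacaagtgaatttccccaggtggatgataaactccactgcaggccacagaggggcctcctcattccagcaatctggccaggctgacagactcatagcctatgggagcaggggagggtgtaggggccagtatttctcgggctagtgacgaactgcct
BTBD10: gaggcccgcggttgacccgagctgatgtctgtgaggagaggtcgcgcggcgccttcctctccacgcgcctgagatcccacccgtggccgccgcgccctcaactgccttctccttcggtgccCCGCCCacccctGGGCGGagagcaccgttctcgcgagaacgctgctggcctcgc
KLHL24: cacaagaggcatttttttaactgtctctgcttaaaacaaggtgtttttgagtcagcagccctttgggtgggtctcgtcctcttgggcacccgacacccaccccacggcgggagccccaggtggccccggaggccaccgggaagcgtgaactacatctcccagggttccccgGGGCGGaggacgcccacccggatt
KLHL21: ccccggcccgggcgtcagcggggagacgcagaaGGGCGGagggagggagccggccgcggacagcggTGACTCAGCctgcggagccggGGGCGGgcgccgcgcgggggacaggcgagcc
The KLHL3 window, chr5:137736091-137736339 on the minus strand upstream of the gene at chr5:137617500-137736090, held none of these motifs in its 249 bases and had a GC content of 51.8%. The BTBD10 window (chr11:13463298-13463472, minus strand) held 2 GC boxes at 71.4% GC. The KLHL24 window (chr3:183635373-183635567, plus strand) held 1 GC box at 61.5% GC. The KLHL21 window (chr1:6603002-6603119, minus strand, upstream of the RefSeq start but inside the gene's span of chr1:6590724-6614607 in GENCODE) held 2 GC boxes and the NRF2 core as TGACTCAGC at 82.2% GC.

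The motifs were counted over the 250 bases before the RefSeq start, for which 42 of the 50 adaptors had an entry. The GC box was in 29 of the 42 (69.0%), beside 42.6% of all 35116 windows in the table. The CCAAT box was in 8 (19.0%), beside 32.0%. The NRF2 core was in 9 (21.4%), beside 10.9%: BTBD1, BTBD3, KCTD2, KLHL12, KLHL13, KLHL15, KLHL18, KLHL21 and SPOP. The p53 half-site was in KLHL5 and SPOPL (4.76%), beside 5.57%. These are letter matches, not measured binding. Unlike the windows shown, the counted ones kept annotated exon bases of either strand, which filled all 250 in KLHL18 and KEAP1 and 163 in BTBD1. For 30 of the 42, the bases after the RefSeq start were found in GENCODE transcripts of the gene. The 35116 windows were not limited to genes expressed here, so the shares set unlike groups side by side.

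More adaptors were called by replicate number than by treatment, but in unlike fits. The fit for treatment left the gap between replicates in its scatter, so the counts do not compare the sizes of these differences. With treatment in the model, 21 of the 50 adaptors (42.0%) passed an adjusted p of 0.05 (limma) between replicate 1 and the mean of replicates 2 and 3, beside 40.8% of all genes, so the share was near the background. Among the adaptors, 7 were higher in replicate 1 (20.3% of all genes were) and 14 lower (20.6% of all genes were). In 31 adaptors (62.0%) both replicate 1 libraries lay outside the range of the other 4, beside 55.5% of all genes. The labels name no batch, day or lane for the numbers. The split was chosen after earlier results of these data had shown replicate 1 apart. Its p-values are therefore not those of a preset comparison.

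KLHL24, which marks keratin 14 and is mutated in a skin fragility disorder, had the widest gap. KLHL24 measured 9.04, 16.3 and 15.2 CPM in untreated replicates 1, 2 and 3 and 8.54, 18.6 and 18.6 CPM in the pre-dose libraries of the same numbers. Both replicate 1 libraries lay far below the other 4, and the difference, replicate 1 minus replicates 2 and 3, was -0.89 log2 (adjusted p = 6.9e-05, limma). Its difference between groups, 0.13 (-0.63 to 0.88), had the widest interval on the list; over replicates 2 and 3 alone it was 0.23 (adjusted p = 0.0831, limma). KBTBD3 was also lower in replicate 1, at -0.39 (adjusted p = 0.0409), with 1.10, 1.61 and 2.29 CPM untreated and 1.56, 2.27 and 2.05 CPM pre-dose. Both replicate 1 libraries were below the other 4, though at no more than 32 to 69 estimated reads per library. BACH1 was lower at -0.25 (adjusted p = 0.00872), KLHL28 at -0.25 (adjusted p = 0.0384) and RHOBTB3 at -0.20 (adjusted p = 0.00127). The other 9 that were lower, KCTD9, KLHL7, KLHL5, ENC1, RHOBTB1, BTBD7, KLHL9, BTBD1 and KCTD3, had differences of -0.24 to -0.12 log2.

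Those higher in replicate 1 included both KEAP1 and the mitotic adaptor KLHL21. KLHL21, which with KLHL9 and KLHL13 acts on Aurora B, measured 108, 77.4 and 80.4 CPM untreated and 100.3, 82.0 and 82.9 CPM pre-dose. Both replicate 1 libraries lay above the other 4, by 0.36 log2 (adjusted p = 2.7e-04, limma). KEAP1 was higher by 0.32 (adjusted p = 0.00256), and over replicates 2 and 3 alone its difference between groups was 0.17 (adjusted p = 0.0966). KLHL25, an adaptor for the translation repressor 4E-BP1, measured 11.8, 10.2 and 10.8 CPM untreated and 13.6, 9.56 and 8.44 CPM pre-dose and was higher by 0.36 (adjusted p = 0.0166). The remaining adaptors that were higher were KLHL22 (0.22), BTBD2 (0.18), KCTD5 (0.17) and KCTD2 (0.15). KLHL22 shares 10.3% of its exon bases with a keratin 18 pseudogene on the same strand, so reads there could be counted to either.

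**Figure D4:**
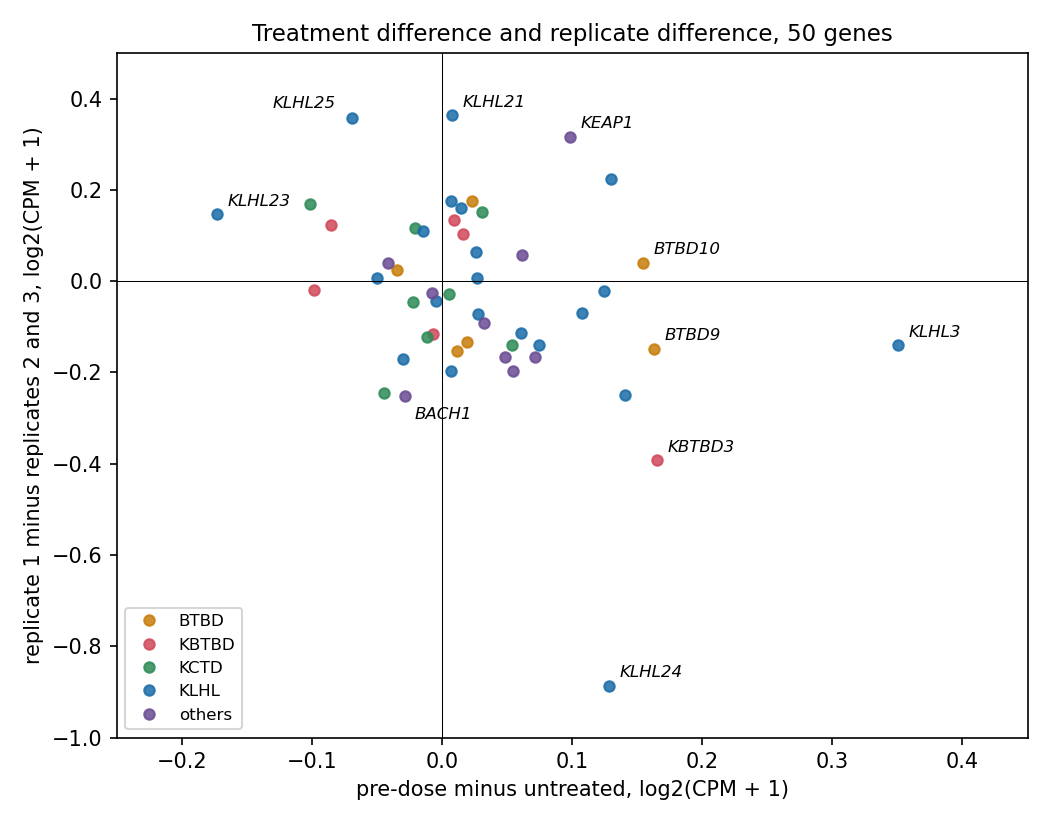
For each adaptor, the log2 difference between pre-dose and untreated (horizontal) against that between replicate 1 and replicates 2 and 3 (vertical), both on the log2(CPM + 1) scale. Points are the 50 adaptors, coloured by subfamily. The spread is wider vertically, down to -0.89 for KLHL24, than horizontally, up to 0.35 for KLHL3.

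With replicate 1 of both groups left out, 1 adaptor was called (KLHL3, 2.0% of the list, beside 6.36% of all genes). At an unadjusted p under 0.05 there were 9 (18.0%), beside 21.0% of all genes: KEAP1, KLHL3, KLHL22, KLHL24, BTBD9 and BTBD10 higher in pre-dose, and KLHL23, KBTBD2 and KCTD5 lower. In the authors' deposited table, 11 adaptors (22.0%) had an unadjusted p under 0.05, beside 23.3% of all genes. For KLHL3, the log2 difference in the authors' deposited table was 0.42.

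No other gene of the ligase was called. Of 31 genes for cullin 3, its NEDD8 cycle, the COP9 signalosome and ubiquitin transfer, none passed the test in either direction, beside 0.0% of all genes. None had an unadjusted p under 0.05 (limma), beside 2.06% of all genes. Over replicates 2 and 3 alone, 6 (19.4%) did, 1 higher and 5 lower, beside 21.0% of all genes, and none was called. In all 6 libraries, 10 of the 31 were above 0 and 21 below, and the median was -0.01 log2. The split differed by pair: 21 of the 31 were higher in pre-dose in the replicate 1 pair (median 0.03), but 11 and 9 in the pairs of replicates 2 and 3 (medians -0.06 and -0.03). CUL3 measured 84.2 ± 1.28 CPM untreated and 86.0 ± 2.28 CPM pre-dose (SD, n = 3), a difference of 0.03 log2 (-0.10 to 0.15). RBX1, its RING partner, had -0.06 (-0.23 to 0.10) and NEDD8 -0.01 (-0.15 to 0.13). The RNA says nothing of how much cullin 3 protein carries NEDD8.

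Of 39 genes for known substrates of these adaptors, 37 had a row (WNK2 and WNK4 had none). None passed the test or had an unadjusted p under 0.05 (limma), beside 0.0% and 2.06% of all genes. Over replicates 2 and 3 alone, 12 (32.4%) had an unadjusted p under 0.05, 4 higher and 8 lower, beside 21.0% of all genes. In all 6 libraries, 15 of the 37 were above 0 and 22 below, with a median of -0.03 log2. In all 3 pairs, 12 (32.4%) were lower in pre-dose, beside 16.3% of all genes, and 1 (2.70%) was higher, beside 15.6%. NFE2L2, which encodes NRF2, measured 77.2 ± 2.86 CPM untreated and 78.9 ± 5.16 CPM pre-dose, and WNK1, a substrate of KLHL3, 285 ± 1.57 and 287 ± 5.10 CPM (SD, n = 3). Over replicates 2 and 3 alone, where 6.36% of all genes were called, 3 substrate genes fell, all mitotic kinases: AURKA by 0.49 (adjusted p = 0.0015), PLK1 by 0.52 (adjusted p = 0.00187) and AURKB by 0.41 log2 (adjusted p = 0.0156, limma). These 3 were chosen after their values were seen. AURKA measured 78.8, 68.6 and 68.9 CPM in untreated replicates 1, 2 and 3 and 90.0, 45.1 and 52.2 CPM in pre-dose, PLK1 227, 171 and 179 and 270.0, 111 and 133 CPM, and AURKB 47.2, 42.3 and 37.6 and 50.8, 27.1 and 32.7 CPM. In each, pre-dose replicate 1 was the highest of the 6 libraries and pre-dose replicates 2 and 3 the lowest. In the replicate 1 pair each was above 0 in pre-dose, at 0.19, 0.25 and 0.10 log2, and in all 6 libraries none was called. Their adaptors KLHL18, KLHL22, KLHL9, KLHL13 and KLHL21 were not called in either fit.

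Of 51 further BTB-domain genes, 28 had a row and 27 were tested. None passed the test, and 16 were above 0 and 11 below. At an unadjusted p under 0.05 there were 3 (11.1%), beside 2.06% of all genes: RCBTB2 (0.27 log2, unadjusted p = 0.022) and KLHL4 (0.29, unadjusted p = 0.0388) higher in pre-dose and KCTD12 (-0.23, unadjusted p = 0.0472) lower (limma, adjusted p = 1.00 for each). Passing an adjusted p of 0.05 in the authors' deposited table were 3 of the 28 genes (10.7%), beside 3.05% of all genes: KCTD20 (-0.32), RCBTB1 (0.24) and KLHL4 (0.38 log2). KCTD20 measured 79.9, 101 and 97.9 CPM in untreated replicates 1, 2 and 3 and 78.4, 85.6 and 76.9 CPM in pre-dose. Its groups overlapped, since untreated replicate 1 lay among the pre-dose libraries. RCBTB1 measured 24.0, 25.6 and 25.5 CPM untreated and 25.8, 30.6 and 30.3 CPM pre-dose, with all pre-dose libraries above the untreated ones. KLHL4 measured 8.91, 11.3 and 10.0 CPM untreated and 11.1, 12.8 and 13.8 CPM pre-dose, and overlapped between groups.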

How the data were processed

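RNA of 6 hTERT RPE-1 libraries (3 untreated, 3 pre-dose, grouped by sample title) was made with poly-A selection and random hexamers and read in pairs, per the labels' protocols, which mention no strand marking. Tools listed in the submitters' processing notes are limma, edgeR, DRAGEN and bcl2fastq, and the build is hg38; for the counting step, annotation and filters, the sources used here give nothing. The authors deposited a table of 13773 rows with log2 CPM per library, from which 77 rows repeating an identifier were dropped. The low values stepped in hundredths of a read above an offset of 0.5 counts, so the deposited values came from estimated, not whole, counts (52.9 to 55.6% whole under 200 reads). The authors also deposited p-values, raw and adjusted, log2 fold changes and a moderated t as a score for their own comparison, per the file headers. The fold change was turned to pre-dose minus untreated. Its sign then matched the difference of the library means for 83.5% of genes, and SPOP was among those that differed.

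Values were returned to CPM, and limma-trend was fitted to log2(CPM + 1), which understates changes of low genes, on the 13616 genes averaging 1 CPM or more, with Benjamini-Hochberg adjustment and a two-sided threshold of 0.05 (R 4.3.3, limma 3.58.1). A quasi-likelihood test had been planned for whole counts and was not used. The script was tested on simulated data with changes larger than any adaptor difference here and no gap between replicates. That test therefore does not show how well small differences are found in these libraries. Replicate 1 was set against replicates 2 and 3 with treatment in the model. The replicate 1 libraries deviated together from their group means (r = 0.66 over genes). For replicates 2 and 3, same-numbered libraries gave 0.45 and 0.18. The crossed values were higher, at 0.51 for untreated replicate 3 with pre-dose replicate 2 and 0.28 for untreated replicate 2 with pre-dose replicate 3. The pairing of replicates 2 and 3 thus comes from the titles' numbers alone. Exon lengths and positions came from GENCODE 29 (GRCh38), in which all 50 genes were found. Figures were drawn with matplotlib 3.10.9.

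The members and lists were chosen with earlier results of these data known. Values in every library were given for adaptors called by limma, with the replicate block or by the authors, the 4 smallest unadjusted p-values in each direction, the 3 highest and the 3 lowest levels per kb, the 3 furthest above and below in replicate 1, and KEAP1, SPOP and KLHL20. Of the 39 substrate genes and 51 further BTB genes, those without a row were left out.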

Additional observations from a re-analysis of the deposited data

How the results depend on the processing

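The count of adaptors called stayed at 0 with a pseudocount of 0.25 or 4 CPM, without a filter, with a mean of at least 5 CPM, with median centring, with voom on the estimated counts and when any single library was left out (0 to 0 for the adaptors and each other list, and for all genes). With replicate number as a block it was also 0, of the adaptors and of all genes (0.0%); at an unadjusted p under 0.05 the block gave 3 adaptors (KLHL3, BTBD9 and BTBD10; 6.0%), beside 10.6% of all genes, and it changed no call. Array quality weights, estimated from the scatter of these same libraries, called 189 of all genes, 1 adaptor and 1 further BTB gene (KCTD20). Replicates 2 and 3 alone called 866 genes, 1 adaptor, 3 substrate genes and 2 further BTB genes (KCTD20 and RCBTB1); why replicate 1 differs was not tested. The adaptor was KLHL3 in both, at 0.39 and 0.41 log2; over all alternatives it ran from 0.27 to 0.43. The sign was kept under every alternative run for 13 of the 21 genes given by library, and turned in at least 1 for BACH1, BTBD2, KBTBD8, KLHL5, KLHL21, KLHL24, KLHL25 and SPOP, none of which was called. KBTBD3 and KBTBD8, at 26 to 69 estimated reads per library, are limited by depth.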
